A study of Mus musculus with 4 samples.

Results

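The vessel-associated miRNAs miR-126a, miR-126b, miR-221 and miR-222 are described here as counted in plasma vesicles of gp49B-deficient and wild-type tumour-bearing mice. The 6 members (both arms of miR-126a and of miR-126b, and the 3p arms of miR-221 and miR-222) were taken by name from the 1809 miRNAs listed for all 4 libraries. The study compared gp49B-/- mice (KO) with wild-type mice (WT), all C57BL/6, in which tumours had been seeded by intravenous LLC cells, a Lewis lung cancer line. Plasma was taken on day 21, vesicles were precipitated from it, and their small RNA was sequenced. Gp49B is an inhibitory receptor of mast and myeloid cells, and the labels name no other allele or agent. Each genotype had 2 libraries, called pool 1 and pool 2. Each KO library came from a pool of 4 plasma samples and each WT library from a pool of 3, so the number of samples pooled cannot be told apart from genotype. The files used here hold no mRNA, so the deleted gene itself could not be checked.

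The miR-126a hairpin lies in an intron of Egfl7, which encodes a protein secreted by endothelial cells, and miR-126 is enriched in endothelium. In mice miR-126-3p represses Spred1, an inhibitor of growth factor signalling, and is needed for vessel integrity. In human cells miR-221 and miR-222 repress the receptor KIT and the cell cycle inhibitor CDKN1B, and in human endothelial cells they restrain tube formation. Human platelets also carry miR-126, so in plasma it does not mark endothelium alone. The cells that released the RNA were not identified, and fewer contributing cells and less RNA released per cell cannot be told apart in such bulk samples.

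Mature sequences of 5 of the 6 members were matched in RefSeq (GRCm38.p6) and are shown 5′ to 3′ because the members are related by seed and by strand. Capitals mark the seed, bases 2 to 8, the part that pairs with targets.
miR-126a-3p: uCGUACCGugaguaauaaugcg
miR-126b-3p: cGCGUACCaaaaguaauaaugug
miR-126b-5p: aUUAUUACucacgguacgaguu
miR-221-3p: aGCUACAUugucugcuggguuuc
miR-222-3p: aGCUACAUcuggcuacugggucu
The seed of miR-221-3p and miR-222-3p was the same, and their first 8 bases were identical. Elsewhere in RefSeq that seed was found in miR-1928 alone, which was scarce, at 70 and 139 UMIs in KO pools 1 and 2, against 85 and 107 UMIs in WT pools 1 and 2. No other RefSeq mature miRNA had the seed of miR-126a-3p, miR-126b-3p or miR-126b-5p.

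The miR-126b hairpin is read from the strand opposite miR-126a at the same place. Mature miR-126a-3p was located at chr2:26591402-26591423 (plus strand, GRCm38) and miR-126b-5p at chr2:26591399-26591420 (minus strand). They are complementary over 19 bases, in capitals here.
miR-126a-3p: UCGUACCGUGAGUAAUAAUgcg
miR-126b-5p: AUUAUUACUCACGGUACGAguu
On the other side of the loop, miR-126a-5p (chr2:26591365-26591385, plus strand) and miR-126b-3p (chr2:26591363-26591385, minus strand) overlap by 21 bases. In GENCODE M21, 9 Egfl7 transcripts span the hairpin, of which 8 have it in an intron and 1, a retained-intron transcript, in an exon. The gene Gm20532 also spans it, with the hairpin in an intron. The deposited positions of miR-221-3p and miR-222-3p were chrX:19146307-19146329 and chrX:19146903-19146923, both on the minus strand. No gene other than the miRNA genes was annotated over these hairpins, which lie 504 bases apart. RefSeq gives miR-222-3p 23 bases, against 21 bases at the deposited position.

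**Figure D1:**
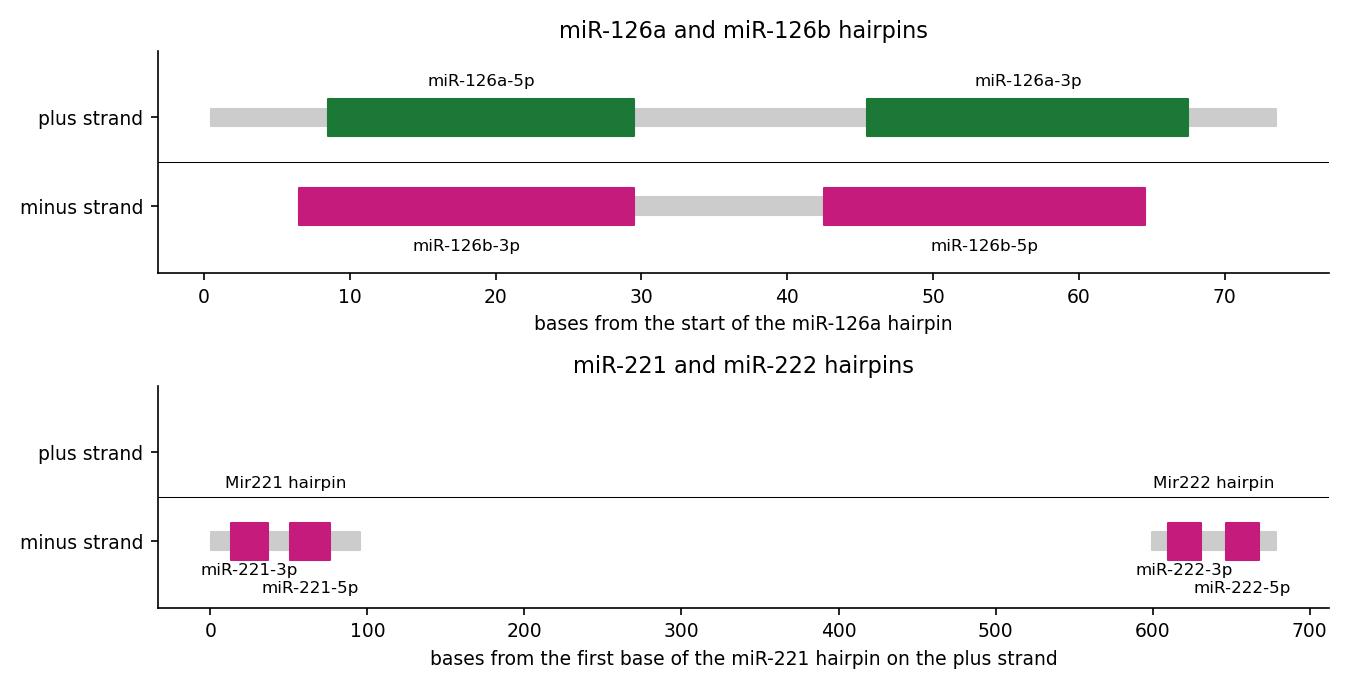
Positions of the mature miRNAs and their hairpins, with the plus strand above and the minus strand below. Bases are counted along the plus strand from the lowest position of the miR-126a hairpin (upper panel) or of the miR-221 hairpin (lower panel). The miR-126b arms lie opposite the miR-126a arms, with 21 and 19 shared bases, and the miR-221 and miR-222 hairpins lie 504 bases apart on 1 strand.

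Values are counts of unique molecular identifiers (UMIs), tags added to each molecule before amplification. Totals were 1729201 and 3645842 UMIs in KO pools 1 and 2, and 1607218 and 3179081 in WT pools 1 and 2. The pool numbers differed in how often each tag was read, at 5.70 and 5.29 reads per UMI in KO and WT pool 1, against 2.11 and 1.69 in KO and WT pool 2. Levels are therefore given as a share of miRNA UMIs and as CPM, counts per library size after TMM scaling, which sets the bulk of miRNAs level between libraries, and ratios of KO over WT are also given within each pool number. Brackets after a ratio or share hold exact 95% binomial intervals, which cover counting error only. Over the 1780 miRNAs above 0 in all libraries, the median KO over WT ratio with TMM was 0.994 in pool 1 and 0.989 in pool 2. On total UMIs this median was 0.880 in pool 1 and 1.18 in pool 2, so ratios on total UMIs are to be read against those values rather than against 1.

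MiR-126a-3p, the arm that represses Spred1, was higher in KO than in WT in pool 1 and lower in pool 2. The row mmu-miR-126a-3p held 9012 and 5928 UMIs in KO pools 1 and 2, against 5006 and 5870 UMIs in WT pools 1 and 2. This was a share of 0.527% (0.516 to 0.538%) and 0.163% (0.159 to 0.168%) of miRNA UMIs in KO pools 1 and 2, and of 0.317% (0.309 to 0.326%) and 0.185% (0.180 to 0.190%) in WT pools 1 and 2. KO pool 1 had the highest share and KO pool 2 the lowest, so the genotypes overlapped. After TMM scaling the level was 3508 and 2388 CPM in KO, against 1871 and 3227 CPM in WT, with KO pool 1 highest and WT pool 1 lowest. Mean levels were 2948 ± 792 CPM for KO and 2549 ± 959 CPM for WT (SD over 2 libraries per genotype). The log2 fold change was 0.21 (SE 0.72) and did not pass edgeR's quasi-likelihood test (Benjamini-Hochberg adjusted p = 0.99995). Set against WT of the same pool number, KO was at 1.88 times (1.81 to 1.94) in pool 1 and 0.740 times (0.714 to 0.767) in pool 2 with TMM. On total UMIs the values were 1.66 times (1.60 to 1.72) in pool 1 and 0.882 times (0.851 to 0.914) in pool 2. The pools thus differed in direction under both scalings, by more than counting error.

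The other arm, which in mouse endothelium is known to repress Dlk1, was less uneven. The row mmu-miR-126a-5p held 6749 and 6367 UMIs in KO pools 1 and 2, against 4248 and 4864 UMIs in WT pools 1 and 2. In CPM after TMM scaling it stood at 2627 and 2565 in KO, against 1588 and 2674 in WT. WT pool 1 was the low library and the other 3 lay close together. Mean levels were 2596 ± 44.2 CPM for KO and 2131 ± 768 CPM for WT (SD over 2 libraries per genotype), and the log2 fold change of 0.29 (SE 0.70) did not pass (edgeR adjusted p = 0.99995). With TMM, KO was at 1.65 times WT (1.59 to 1.72) in pool 1 and 0.959 times (0.924 to 0.996) in pool 2. On total UMIs the pool 2 value was 1.14 times (1.10 to 1.19), so the direction in pool 2 depended on the scaling. Together the arms of miR-126a took 0.922% and 0.339% of miRNA UMIs in KO pools 1 and 2, and 0.587% and 0.339% in WT pools 1 and 2 (exact two-sided permutation p = 0.667). In pool 2 the intervals of these shares overlapped almost wholly, at 0.333 to 0.345% in KO and 0.332 to 0.345% in WT.

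**Figure D2:**
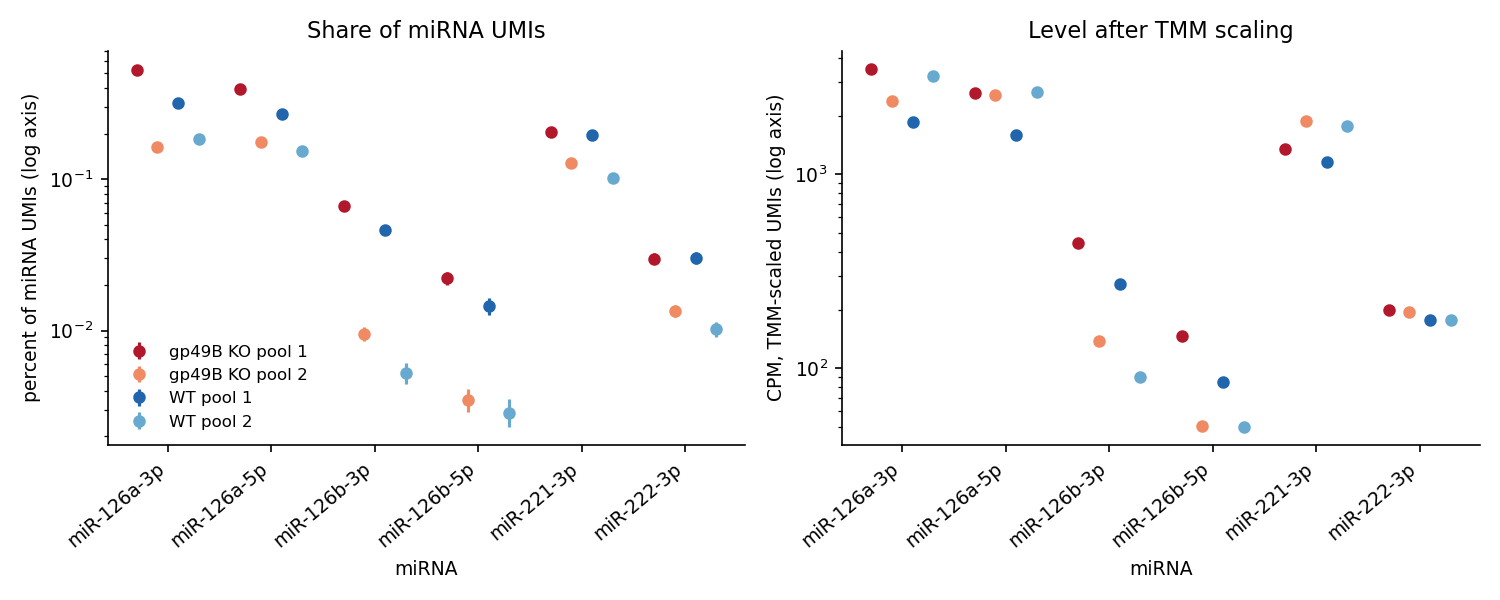
Levels of the 6 members in each library, as percent of miRNA UMIs with exact 95% binomial intervals and as CPM after TMM scaling, both on log axes. Shares of every member were higher in the pool 1 library than in the pool 2 library of the same genotype, and for miR-126a-3p KO pool 1 stood highest at 0.527%.

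Arm use of miR-126a was close to even, and the ratio of its arms needs no scaling between libraries. The miR-126a-3p to miR-126a-5p ratio was 1.34 (1.29 to 1.38) in KO pool 1 and 0.931 (0.899 to 0.965) in KO pool 2, against 1.18 (1.13 to 1.23) in WT pool 1 and 1.21 (1.16 to 1.25) in WT pool 2. The WT libraries did not differ beyond counting error, the KO libraries lay on either side of them, and of the 4 libraries KO pool 2 alone held more of the 5p arm. On the log2 scale the ratio averaged 0.16 ± 0.37 in KO, against 0.25 ± 0.02 in WT (SD over 2 libraries per genotype), with an exact two-sided permutation p of 1. With 2 libraries against 2 there are 6 splits, and the smallest p is 0.333. In reads the ratios were 1.33 and 0.965 in KO and 1.17 and 1.26 in WT, again lowest in KO pool 2. Of 44 hairpins with both arms at a mean of at least 100 UMIs, miR-126a was the second nearest to equal arms, and 8 varied less over the 4 libraries.

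MiR-126b was counted at lower levels than miR-126a, with its 3p arm as the higher one. The row mmu-miR-126b-3p held 1140 and 343 UMIs in KO pools 1 and 2, against 726 and 165 UMIs in WT pools 1 and 2. The row mmu-miR-126b-5p held 378 and 126 UMIs in KO pools 1 and 2, against 228 and 91 UMIs in WT pools 1 and 2. For either arm both pool 1 libraries lay above both pool 2 libraries, so the genotypes overlapped. After TMM scaling miR-126b-3p averaged 291 ± 216 CPM in KO, against 181 ± 128 CPM in WT, and miR-126b-5p averaged 99.0 ± 68.2 CPM in KO, against 67.6 ± 24.9 CPM in WT (SD over 2 libraries per genotype). The log2 fold changes were 0.68 (SE 0.72) for miR-126b-3p and 0.55 (SE 0.60) for miR-126b-5p, and neither passed (edgeR adjusted p = 0.99995 each). With TMM, miR-126b-3p in KO was at 1.64 times WT (1.49 to 1.80) in pool 1 and 1.52 times (1.26 to 1.85) in pool 2, the highest pool 2 value of the 6 members. MiR-126b-5p was at 1.73 times (1.46 to 2.04) in pool 1 and 1.01 times (0.769 to 1.34) in pool 2. On total UMIs miR-126b-3p was at 1.45 times in pool 1 and 1.82 times in pool 2, and miR-126b-5p at 1.53 and 1.21 times. On total reads miR-126b-3p was lower, at 1.26 and 1.44 times. MiR-126b-5p in reads was at 1.11 times in pool 1 and 1.21 times in pool 2.

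**Figure D3:**
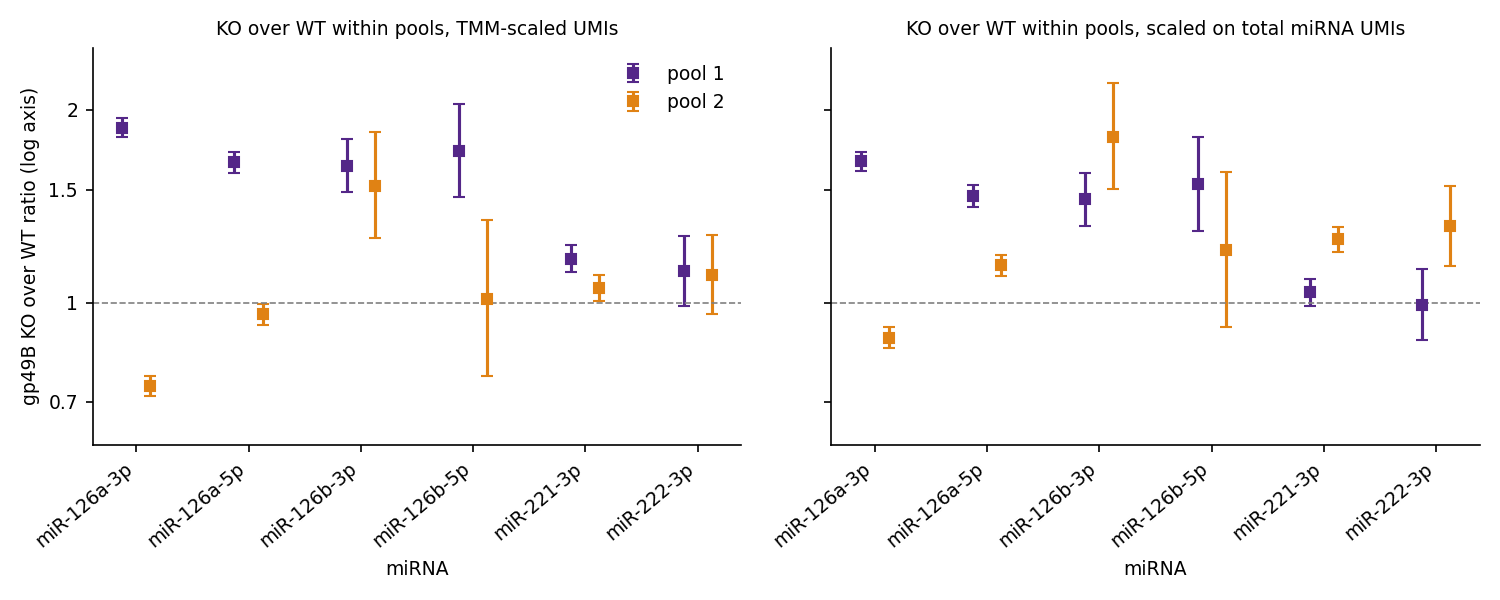
KO over WT ratio of each member within pool 1 and pool 2 on log axes, from TMM-scaled UMIs and from shares of total miRNA UMIs, with exact 95% intervals for counting error. MiR-126a-3p lies above 1 in pool 1 and below 1 in pool 2 under both scalings, and miR-126b-3p lies above 1 in both pools under both scalings.

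In UMIs, the amount of each miR-126b arm relative to the miR-126a arm opposite it went with pool number. MiR-126b-3p amounted to 16.9% (15.9 to 18.0%) of the UMIs of miR-126a-5p in KO pool 1 and 17.1% (15.8 to 18.5%) in WT pool 1. In pool 2 it amounted to 5.39% (4.82 to 6.01%) in KO and 3.39% (2.89 to 3.96%) in WT. The genotypes did not differ beyond counting error in pool 1, where miR-126a-5p itself was 1.65 times as high in KO, and KO was the higher in pool 2. MiR-126b-5p amounted to 4.19% (in KO) and 4.55% (in WT) of the UMIs of miR-126a-3p in pool 1, and to 2.13% (in KO) and 1.55% (in WT) in pool 2. Over the libraries the exact two-sided permutation p was 1 for each of these percentages.

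Reads per UMI, the number of times each tagged molecule was read, set the miR-126b arms apart from the other members. For miR-126b-3p it was 1.33 and 1.14 in KO pools 1 and 2, against 1.42 and 1.15 in WT pools 1 and 2. For miR-126a-5p, on the opposite strand, it was 6.50 and 2.17 in KO pools 1 and 2, against 6.20 and 1.69 in WT pools 1 and 2. A tagged molecule of miR-126b-3p was thus read little more than 1 time on average, also in pool 1, where the median miRNA was read 6.16 times in KO and 5.82 times in WT. Among the 352 miRNAs averaging at least 100 UMIs, miR-126b-3p was the 2nd and 3rd lowest in KO pools 1 and 2, and the 5th and 6th lowest in WT pools 1 and 2. MiR-126b-5p stood at 1.78 and 1.69 in KO and 2.29 and 1.35 in WT, and was within the 18 lowest in each library. The lowest place of the other 4 members was the 84th, held by miR-222-3p in WT pool 1. Counted in reads, miR-126b-3p amounted to 3.46% and 2.82% of miR-126a-5p in KO pools 1 and 2, against 3.93% and 2.30% in WT pools 1 and 2, so its step between pool numbers was smaller in reads than in UMIs. MiR-126b-5p amounted to 1.16% and 1.59% of the reads of miR-126a-3p in KO pools 1 and 2, against 1.70% and 1.19% in WT pools 1 and 2, so in KO its step in reads ran the other way than in UMIs.

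**Figure D4:**
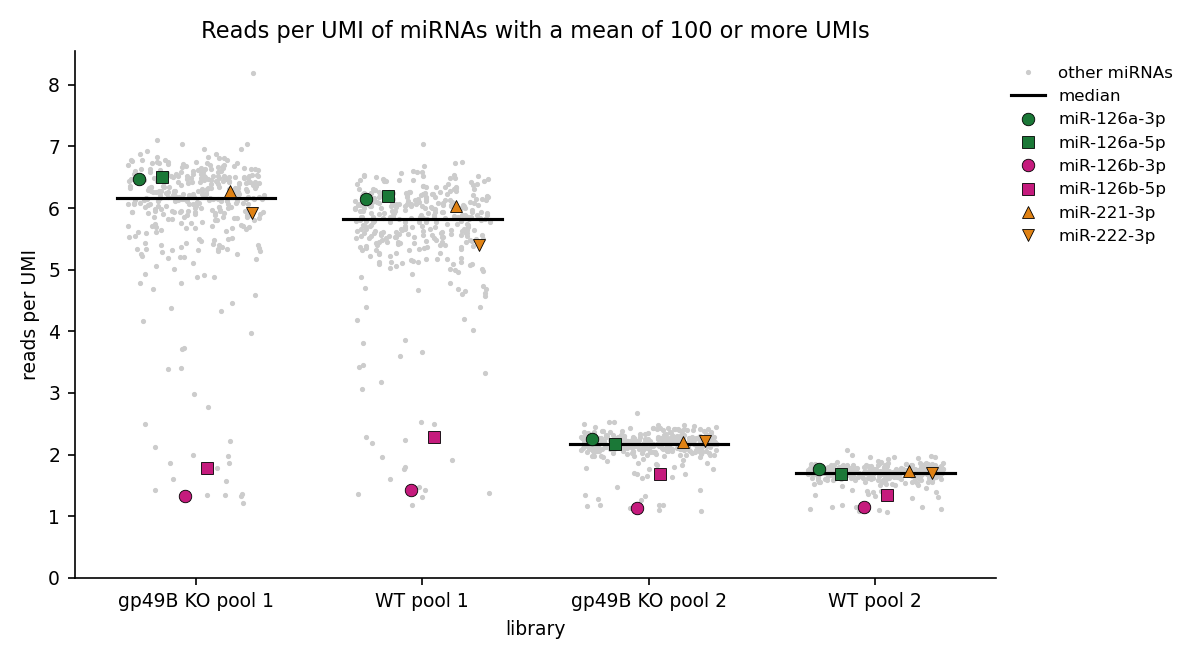
Reads per UMI in each library for 352 miRNAs averaging at least 100 UMIs (grey points, with the median as a line) and for the 6 members (coloured symbols). The miR-126b arms lie at 1.14 to 2.29 over the libraries, against medians of 6.16 and 2.18 in KO pools 1 and 2 and 5.82 and 1.71 in WT pools 1 and 2.

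Of 33 opposite-strand pairs counted, 7 had an abundant row averaging at least 1000 UMIs, a limit set after the miR-126 values were seen, and 5 of these were not of miR-126. In all 7 pairs the opposite-strand row was a larger percentage of the abundant row in pool 1 than in pool 2, by 1.97-fold to 3.18-fold in KO and by 2.83-fold to 5.11-fold in WT. MiR-126b-3p had steps of 3.14-fold in KO and 5.04-fold in WT, and miR-126b-5p had steps of 1.97-fold in KO, the smallest of the 7, and 2.94-fold in WT. Among the remaining 26 pairs 16 had the larger percentage in pool 1 in KO and 16 in WT, so the direction was not shared by all pairs. Their opposite-strand rows were scarce, with a median over pairs of 25.6 UMIs on average, so counting error weighs more there. The lowest nonzero count also differed, at 10 in pool 1 against 2 and 1 in KO and WT pool 2. In reads the step over the 7 pairs ran from 0.724-fold, the value of miR-126b-5p, to 1.66-fold in KO and from 1.04-fold to 2.49-fold in WT. The opposite-strand rows of the 7 pairs had 1.33 to 2.23 reads per UMI in KO pool 1 and 1.37 to 2.54 in WT pool 1. Those of the remaining 26 pairs were higher, from 2.95 (miR-30f) to 7.73 (miR-129b-5p) in KO pool 1. In WT pool 1 they ran from 3.24 (miR-290a-5p) to 6.45 (miR-299b-3p) where counted above 0. Low reads per UMI were thus not shared by opposite-strand rows in general. The miR-126 pairs come from the same hairpins, and so do the pairs of miR-486a with miR-486b, so the 7 pairs are not independent of each other. No difference between miR-126b and the other pairs was tested.

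**Figure D5:**
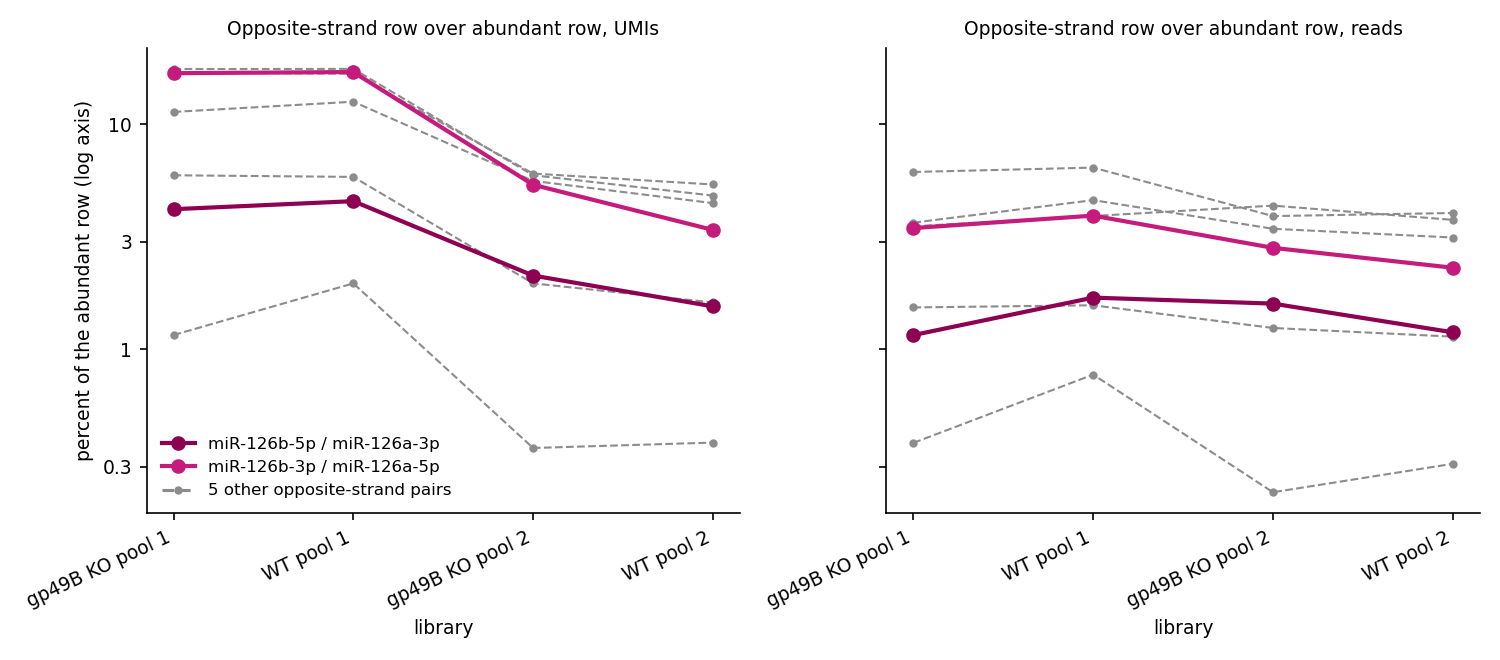
Counts of the opposite-strand row as a percent of the abundant row at the same place, in UMIs and in reads, on log axes, in each of the 4 libraries. In UMIs miR-126b-3p stands at 16.9% of miR-126a-5p in KO pool 1 and 17.1% in WT pool 1, against 5.39% in KO pool 2 and 3.39% in WT pool 2.

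MiR-221-3p, one of the pair known to repress KIT in human cells, differed little between the genotypes. The row mmu-miR-221-3p held 3489 and 4666 UMIs in KO pools 1 and 2, against 3105 and 3245 UMIs in WT pools 1 and 2. After TMM scaling this was 1358 and 1880 CPM in KO, against 1160 and 1784 CPM in WT. Each KO library stood a little above the WT library of its pool number, and the pool 2 libraries stood above the pool 1 libraries. In shares of UMIs the order of the pool numbers was reversed. The shares were 0.204% and 0.129% in KO pools 1 and 2, against 0.197% and 0.102% in WT pools 1 and 2. Mean levels were 1619 ± 369 CPM for KO and 1472 ± 441 CPM for WT (SD over 2 libraries per genotype), and the log2 fold change of 0.14 (SE 0.66) did not pass (edgeR adjusted p = 0.99995). With TMM, KO was at 1.17 times WT (1.11 to 1.23) in pool 1 and 1.05 times (1.01 to 1.10) in pool 2. On total UMIs it was at 1.04 times (0.988 to 1.09) in pool 1 and 1.26 times (1.20 to 1.31) in pool 2.

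MiR-222-3p, with the same seed, varied least of the members after TMM scaling. The row mmu-miR-222-3p held 511 and 486 UMIs in KO pools 1 and 2, against 475 and 322 UMIs in WT pools 1 and 2. This was 199 and 196 CPM in KO, against 178 and 177 CPM in WT. Both KO libraries lay above both WT libraries by this measure, as they did for 9.55% of the 1780 miRNAs above 0 in all libraries, whereas in shares of UMIs the genotypes overlapped. The log2 fold change was 0.15 (SE 0.51, edgeR adjusted p = 0.99995). With TMM, KO was at 1.12 times WT (0.987 to 1.27) in pool 1 and 1.11 times (0.959 to 1.28) in pool 2, and both intervals include 1. On total UMIs it was at 0.993 times (0.874 to 1.13) in pool 1 and 1.32 times (1.14 to 1.52) in pool 2, so the direction in pool 1 depended on the scaling. Together miR-221-3p and miR-222-3p took 0.234% and 0.142% of miRNA UMIs in KO pools 1 and 2, against 0.227% and 0.113% in WT pools 1 and 2 (exact two-sided permutation p = 0.667).

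The ratio of miR-221-3p to miR-222-3p was 6.83 (6.22 to 7.51) in KO pool 1 and 9.60 (8.74 to 10.6) in KO pool 2, against 6.54 (5.93 to 7.21) in WT pool 1 and 10.1 (8.98 to 11.3) in WT pool 2. It differed between pool numbers and not, beyond counting error, between genotypes within a pool number (exact two-sided permutation p over the libraries = 1). Their other arms were scarce. MiR-221-5p had 26 and 49 UMIs in KO and 29 and 41 UMIs in WT, and miR-222-5p had 63 and 45 UMIs in KO and 30 and 30 UMIs in WT. For miR-221 the 3p arm exceeded the 5p arm by 134-fold and 95.2-fold in KO and by 107-fold and 79.1-fold in WT. For miR-222 it did so by 8.11-fold and 10.8-fold in KO and by 15.8-fold and 10.7-fold in WT. MiR-222-5p in KO was at 2.19 times WT (1.40 to 3.50) in pool 1 and 1.10 times (0.677 to 1.81) in pool 2, and did not pass (log2 fold change 0.64, SE 0.42, edgeR adjusted p = 0.99995). The permutation p-values here and above belong to 10 comparisons of ratios and shares, and each is 1 after Benjamini-Hochberg adjustment.

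Of the 6 members 0 passed the edgeR test, against a background of 0% of the 1797 miRNAs tested in either direction. All 6 estimates were above 0, as were 47.4% of all estimates, and their median log2 fold change was 0.25 against -0.03 over all miRNAs tested. The members share hairpins and strands and are not independent of each other. At an unadjusted p under 0.05 edgeR had 32 miRNAs, none of them a member, of which 15 (0.835%) had higher and 17 (0.946%) lower estimates in KO. Limma-voom had 27 and DESeq2 28 at that level, and each called 0.

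Within pools the count of members higher in KO was read against all miRNAs above 0 in every library. With TMM 6 of 6 members were higher in KO in pool 1, against 49.3% of the 1780, and 4 of 6 in pool 2, against 48%. In both pools at once 4 of 6 were higher, against 24.5% of the 1780 and 30.7% of the 352 averaging at least 100 UMIs. These 4 were both arms of miR-126b, miR-221-3p and miR-222-3p. On total UMIs 5 of 6 were higher in pool 1, against 34.6%, and 5 of 6 in pool 2, against 69%. Here too 4 of 6 were higher in both pools, against 24.4% and 33.8%, but miR-126a-5p took the place of miR-222-3p. Both KO libraries lay above both WT libraries for 1 of 6 members with TMM and for 0 of 6 on total UMIs, against 9.55% and 3.03%. No member was lower in KO in both pools, against 27.1% with TMM and 20.8% on total UMIs.

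Among 16 other miRNAs known from endothelial cells, 11 had higher and 5 lower estimates in KO, where 47.4% of all estimates were above 0. Of the 16, 0 passed, and their median log2 fold change was 0.06, against -0.03 over all miRNAs tested. In pool 1 the TMM-scaled level of 11 of 16 was higher in KO, against 49.3% of the 1780 miRNAs above 0 in all libraries. In pool 2 it was that of 7 of 16, against 48%. On total UMIs the counts were 6 in pool 1 and 15 in pool 2, against 34.6% and 69%. MiR-10b-5p, a miRNA of the Hox clusters, had the lowest unadjusted p of the list, at 6338 and 4127 UMIs in KO pools 1 and 2, against 2154 and 2744 UMIs in WT pools 1 and 2. With TMM it was at 3.07 times WT in pool 1 and 1.10 times in pool 2 (log2 fold change 0.84, SE 0.69, edgeR adjusted p = 0.99995). MiR-139-5p was at 1.88 times and 1.11 times, and miR-218-5p, a miRNA of Slit genes, at 1.60 times and 1.01 times. The hypoxia-induced miR-210-3p was at 0.569 times WT in pool 1 and 1.28 times in pool 2.

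Nearest to miR-126a-3p in pattern over the 4 libraries were miR-149-5p, miR-187-3p and miR-125a-5p. Their root mean square differences from it in centred log2 CPM were 0.11, 0.13 and 0.14, among 351 other miRNAs averaging at least 100 UMIs. MiR-125a-5p, for instance, had 26915 and 17688 UMIs in KO pools 1 and 2, against 12439 and 14275 UMIs in WT pools 1 and 2. The other arm, miR-126a-5p, was the 15th nearest at 0.19. Nearest to miR-221-3p were miR-7215-5p, miR-29a-3p and miR-320-3p at 0.049, 0.062 and 0.080, and miR-222-3p was the 111th at 0.28. With 4 libraries these orders are descriptions.

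MiRNAs of other blood and tissue cells were counted beside the members, and none of those listed was at 0 in any library. The 5 platelet and leukocyte miRNAs took 6.29% and 2.44% of miRNA UMIs in KO pools 1 and 2, against 3.79% and 2.59% in WT pools 1 and 2. Their summed share was highest in KO pool 1, as for miR-126a, and so were the sums of the skeletal muscle, smooth muscle, epithelial and endothelial lists. The 16 endothelial miRNAs took 2.24% and 1.84% in KO pools 1 and 2, against 2.02% and 1.71% in WT pools 1 and 2. Most of them did not follow their sum. In pool 1, 6 of the 16 took a larger share of UMIs in KO, among them miR-10b-5p at 2.72 times WT and miR-10a-5p at 1.86 times. MiR-92a-3p, which had the most UMIs of the list in each library, was at 0.834 times. Of the 5 platelet and leukocyte miRNAs 4 took a larger share in KO in pool 1, with miR-223-3p at 2.47 times and miR-191-5p at 0.990 times. The 5 red blood cell miRNAs took 37.4% and 46.3% in KO and 46.0% and 43.2% in WT. Their largest part was miR-16-5p, at 503448 and 1034545 UMIs in KO and 558237 and 785747 in WT. By its mean over the libraries it was the most abundant miRNA, but in WT pool 2 miR-122-5p was higher, at 844242 UMIs. MiR-451a of the red blood cell list had 2396 and 8636 UMIs in KO and 2938 and 7281 in WT. The 4 hepatocyte miRNAs took 7.37% and 20.2% in KO and 11.2% and 27.2% in WT. The 4 skeletal muscle miRNAs took 3.73% and 0.690% in KO and 0.404% and 0.428% in WT. The 2 smooth muscle miRNAs took 0.854% and 0.318% in KO and 0.556% and 0.514% in WT, and the 5 epithelial miRNAs took 0.717% and 0.455% in KO and 0.409% and 0.240% in WT. Their part in the values of the members was not tested.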

How the data were processed

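Plasma vesicles were precipitated with ExoQuick and libraries made with the QIAseq miRNA kit, per the labels' protocols. The authors deposited whole-number UMI counts and read counts per miRNA without normalization, per the file headers, and a log2 value per library, which departs from log2 of the UMI count by the same amount for all rows of that library with a count above 0. FastQC 0.11.9 and the build GRCm38 come from the submitters' processing notes, while the aligner was not given in the sources used here. The feature lists differ by pool number. The lowest nonzero UMI count was 10 in KO and WT pool 1, 2 in KO pool 2 and 1 in WT pool 2. The 1809 miRNAs listed in both lists were used, and 54 listed in pool 1 only, 7 in pool 2 only and piRNAs were left out. In the deposited per-library tables the column names of both pool 2 libraries depart from their labels, so each was taken by its sample. Its UMI counts equalled those in the table of all libraries.

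KO was compared with WT by edgeR 4.0.16 in R 4.3.3 (default expression filter, TMM, two-sided quasi-likelihood test, threshold 0.05 after Benjamini-Hochberg adjustment) on all miRNAs, with 2 residual degrees of freedom. The SE was derived from the F statistic. TMM factors were 1.50 and 0.684 in KO pools 1 and 2, and 1.70 and 0.574 in WT pools 1 and 2. Whether the pools hold separate animals is not stated, so p-values measure the spread between these libraries. Members, lists and the rule for naming miRNAs (members and their other arms, up to 4 of the endothelial list by lowest p, the 3 nearest in pattern) were chosen with earlier results of these data known. Alternatives were other scalings, filters, leaving out each library, a block for pool number, limma-voom (limma 3.58.1), DESeq2 1.42.0, read counts, the authors' log2 values and other denominators. The filter on a mean of 100 UMIs together with the block was added after the data were seen. Intervals used SciPy 1.17.1.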

Additional observations from a re-analysis of the deposited data

How the results depend on the processing

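With only 2 pools per genotype, no member passed under any alternative tried, and with 2 libraries against 2 the permutation tests could not reach 0.05. Outside the fits that leave out a library, each member kept a positive log2 fold change, from 0.15 to 0.46 for miR-126a-3p, 0.25 to 0.43 for miR-126a-5p, 0.42 to 0.71 for miR-126b-3p, 0.18 to 0.57 for miR-126b-5p, 0.06 to 0.16 for miR-221-3p and 0.05 to 0.21 for miR-222-3p. Leaving out each library in turn gave -0.11 to 0.66, -0.019 to 0.71, -0.38 to 1.70, -0.40 to 1.12, -0.12 to 0.48 and 0.15 to 0.18 in the same order of members, so 5 of 6 changed sign. MiR-126a-3p turned negative without KO pool 1 (-0.075) and also without WT pool 1 (-0.11), miR-126a-5p without WT pool 1 (-0.019), miR-126b-3p (-0.38) and miR-126b-5p (-0.40) without KO pool 1, and miR-221-3p without KO pool 2 or without WT pool 1 (-0.12 each). The lone library of a genotype is assumed there to vary like the others. Likewise the KO minus WT difference ranged from -0.36 to 0.16 for the log2 arm ratio of miR-126a (0.16 without KO pool 2), from -0.32 to 0.31 for the log2 ratio of miR-221-3p to miR-222-3p (0.24 without KO pool 1 and 0.31 without WT pool 2), from -0.124 to 0.459 percentage points for the share of miR-126a (-0.124 without KO pool 1) and from -0.0390 to 0.0754 for that of miR-221-3p with miR-222-3p (-0.0278 without KO pool 1 and -0.0390 without WT pool 2). For the endothelial list the median ranged from -0.079 to 0.32 (0.32 without WT pool 2). The count of all miRNAs called was 0 to 3 with a library left out (3 with KO pool 2 left out, 2 with WT pool 2 left out) and 10 on miRNAs averaging at least 100 UMIs together with the replicate block. The cause was not tested. Same-numbered libraries deviated together (correlation across miRNAs 0.527), but the labels do not say that a number marks a shared batch and there are 2 pairs. With pool number as a block edgeR called none (0), 78 miRNAs had unadjusted p-values under 0.05, and the members' log2 fold changes were 0.24, 0.33, 0.66, 0.43, 0.15 and 0.15 in the order above. For miR-126b-3p the blocked SE was 0.25, at an unadjusted p of 0.0447 and an adjusted p of 0.898 (edgeR).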

Other observations

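Percentages of other miRNAs that lie opposite an abundant miRNA were as follows. MiR-1b-5p amounted to 17.6% of the UMIs of miR-1a-3p, a muscle miRNA, in KO pool 1 and 17.6% in WT pool 1, and to 5.94% in KO pool 2 and 4.82% in WT pool 2. MiR-1a-3p itself had 30290 UMIs for KO and 3972 UMIs for WT in pool 1. MiR-486b-3p amounted to 17.0% and 6.04% of miR-486a-5p, a red blood cell miRNA, in KO pools 1 and 2, against 16.8% and 5.40% in WT pools 1 and 2. MiR-3074-5p amounted to 11.4% and 5.60% of miR-24-3p in KO, against 12.6% and 4.46% in WT. MiR-486a-3p amounted to 5.94% and 1.96% of miR-486b-5p in KO, against 5.84% and 1.61% in WT. MiR-142b, opposite the leukocyte miRNA miR-142a-3p, was lower, at 1.16% and 0.363% in KO and 1.96% and 0.384% in WT.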
